A study of Mus musculus with 6 samples.

Results

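The mitochondrial carriers (gene symbols beginning Slc25a) are membrane proteins that move nucleotides, phosphate, amino acids, organic acids, cofactors and metal ions across the inner mitochondrial membrane. All symbols made of Slc25a and a number were taken from a table of read counts of mouse hearts, which gave 47 of its 44792 gene symbols. All 47 matched protein-coding genes in RefSeq on GRCm38.p6. The hearts came from 3-month-old C57BL/6 mice that received no treatment. In 3 mice the gene of cardiac troponin I (cTnI) carried the R193H mutation, and 3 mice were wild type (WT). The labels give neither the zygosity nor how the R193H allele was made. The stated purpose is to find genes expressed differently in mutant and WT hearts. Each library is whole heart tissue, so fewer cells of a type and less RNA per cell cannot be told apart.

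Each carrier folds as 3 repeats of a pair of membrane-spanning helices and usually exchanges a solute in the matrix for another outside it. In heart muscle, which makes most of its ATP by oxidative phosphorylation, the carriers export ATP, import ADP and phosphate, pass reducing equivalents through the malate-aspartate shuttle and bring in acylcarnitines for fatty acid oxidation. The symbols do not cover the whole protein family. The uncoupling proteins (Ucp1, Ucp2 and Ucp3) and the mitochondrial carrier homologues Mtch1 and Mtch2 have other names and are given below as partners.

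Carrier transcripts were led by Slc25a4, the adenine nucleotide translocase of heart and muscle, which alone gave 52.3% of the summed level of the 47 genes. None of the 38 members that could be tested passed the threshold for a difference between R193H and WT hearts (edgeR quasi-likelihood test, Benjamini-Hochberg adjusted p under 0.05 over 14370 genes, of which 0.00696% were called). The lowest adjusted p of a member was 0.816, for the aspartate/glutamate carrier Slc25a13, which was also the 1 member with an unadjusted p under 0.05 (2.63% of the members, against 5.73% of all genes tested). DESeq2, which called 0.292% of all genes, and limma-voom each called 0 members, again with 1 member at an unadjusted p under 0.05. Without a filter on low counts edgeR called 0.16% of genes and 0 of 45 members. Levels are in CPM, a gene's count brought to a common library total with factors from the trimmed mean of M values (TMM). A log2 fold change is R193H over WT and is given with its standard error (SE).

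Library totals ran from 19582600 to 21852210 counts in R193H hearts and from 14736067 to 20652534 in WT hearts. Mitochondrially encoded genes took 30.9% to 35.4% of the counts in R193H hearts and 36.7% to 36.8% in WT hearts, with the lowest share in R193H replicate 2. Tnni3, the gene of cardiac troponin I, measured 3896, 3637 and 3699 CPM in R193H hearts, against 3199, 3464 and 3280 CPM in WT hearts. Counts per gene do not show the changed base, so this level does not test the genotype labels. The summed level of 8 heart muscle cell markers was 38578 to 42162 CPM in R193H hearts and 43063 to 45625 CPM in WT hearts, with lower means for 7 of the 8 (median log2 fold change -0.15). The summed level of 5 atrial markers was 132, 242 and 185 CPM in R193H hearts, against 678, 281 and 80.6 CPM in WT hearts. The part of these differences in the carriers' values was not tested.

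The adenine nucleotide translocases exchange ADP for ATP across the inner membrane, and Slc25a3 brings in the phosphate that ATP synthase needs. Slc25a4 (GRCm38 chr8:46207168-46211062) measured 2789, 2638 and 3122 CPM in R193H hearts, against 2999, 3104 and 3031 CPM in WT hearts. R193H replicate 3 lay above every WT heart and the other two R193H hearts lay below them. The group means were 2850.0 ± 248 CPM in R193H hearts and 3044 ± 53.8 CPM in WT hearts (SD, n = 3 each), with a log2 fold change of -0.095 (SE 0.088). Slc25a5 (chrX:36795597-36798808), the translocase of most other tissues, measured 141, 144 and 132 CPM in R193H hearts, against 138, 139 and 143 CPM in WT hearts. Its log2 fold change was -0.013 (SE 0.075), and the R193H values lay on both sides of the WT values. Slc25a31, a translocase known from the germ line, had 16, 3 and 7 counts in R193H hearts and 4, 4 and 8 counts in WT hearts, too few to be tested.

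**Figure D1:**
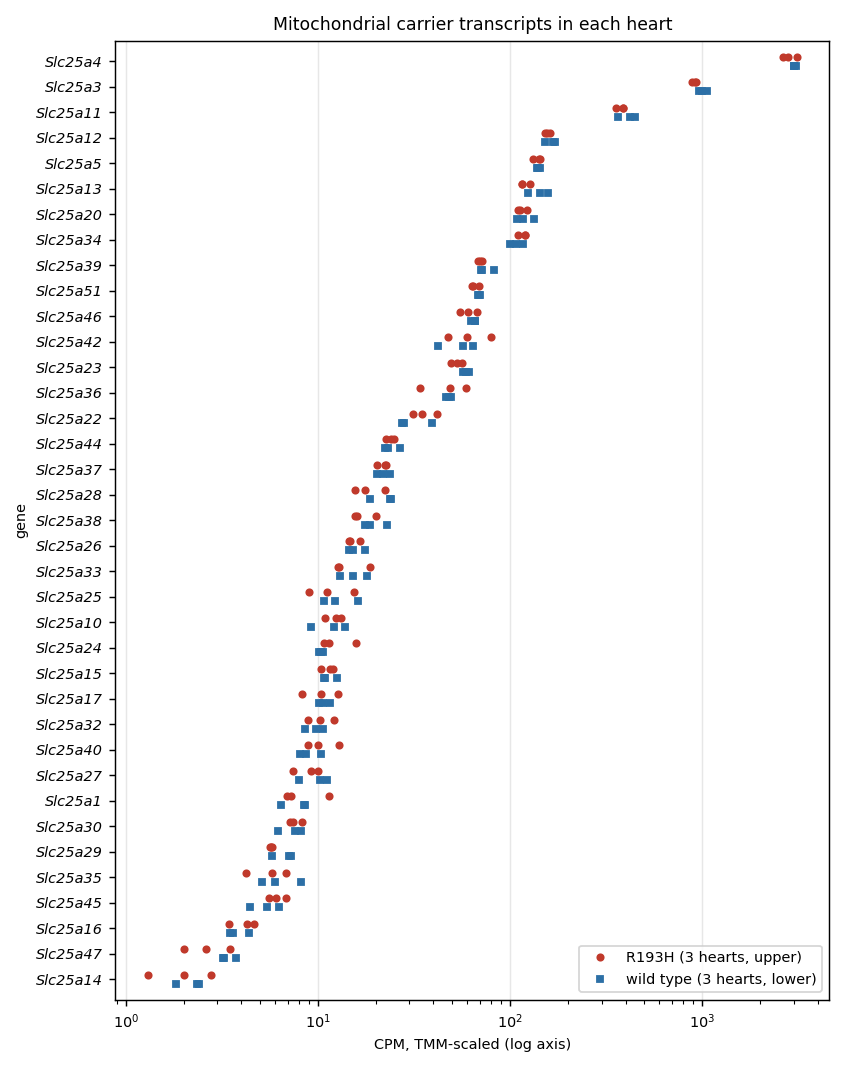
Level of 37 of the 38 tested carriers in CPM on a log axis, ordered by mean, with the 3 R193H hearts as circles in the upper line of each gene and the 3 WT hearts as squares in the lower line. Slc25a4, between 2638 and 3122 CPM, stands above every other carrier, and the R193H and WT hearts overlap in 34 of the 37 genes drawn.

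Slc25a4 took 95.2%, 94.8% and 96.0% of the counts of the pair Slc25a4 and Slc25a5 in R193H hearts, against 95.6%, 95.7% and 95.5% in WT hearts. The 95% exact binomial intervals of these shares lay between 94.6% and 96.1% and cover counting error only. The mean share was 95.3% ± 0.578 in R193H hearts and 95.6% ± 0.103 in WT hearts (SD, n = 3 each; exact two-sided permutation p = 0.5, where 3 hearts against 3 cannot go below 0.1). Per kilobase of the main transcript, Slc25a4 stood 13.2-fold above Slc25a5 in R193H hearts and 14.0-fold above it in WT hearts. The translocase balance thus differed between genotypes by less than the spread between R193H hearts.

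How far reads can tell these translocases apart was read from their transcripts (GENCODE M21). The coding sequences of Slc25a4 and Slc25a5 are both 894 bases long, are identical at 77.6% of aligned positions and share no stretch of 50 bases. Their longest identical run, 20 bases, lies in the window shown here, coding bases 307 to 366. The window is written 5′ to 3′ with the bases that differ in capitals.
Slc25a4: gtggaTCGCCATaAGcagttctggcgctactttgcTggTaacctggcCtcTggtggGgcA
Slc25a5: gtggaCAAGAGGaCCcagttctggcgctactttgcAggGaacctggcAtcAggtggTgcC
A total of 15 of these 60 bases differ. Slc25a5 itself shares 33.8% of its 50-base stretches with 9 other annotated genes, among them the pseudogene Slc25a5-ps. Of these 9, 7 are in the table, and together they held at most 4 counts in any heart. How the authors counted reads with more than 1 match is not given in their notes, so the level of Slc25a5 is uncertain, while Slc25a4 shared no 50-base stretch with any annotated transcript.

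Slc25a3 (chr10:91116574-91124046) measured 889, 917 and 933 CPM in R193H hearts, against 997, 1060.2 and 962 CPM in WT hearts. All 3 R193H hearts lay below all 3 WT hearts, as for 5.81% of all genes tested. Its log2 fold change of -0.14 (SE 0.080) missed the threshold, with an edgeR adjusted p of 0.892, and was -0.012 under scaling by library totals. Slc25a3 stood at 595 CPM per kilobase against 1531 for Slc25a4 and 113 for Slc25a5, averaged over all 6 hearts. Lengths over all annotated exons put them at 173, 1252 and 84.8 CPM per kilobase, so that the ratio of Slc25a3 to Slc25a5 was 2.04, against 5.05 in R193H hearts and 5.52 in WT hearts by the main transcript.

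The promoters of these 3 carriers are shown because their levels per kilobase run over more than 1 order of magnitude. Each is the 250 bases before a RefSeq start on GRCm38.p6, on the gene's strand, 5′ to 3′, with matches to the searched motifs in capitals. The windows lie at chr8:46211063-46211312 on the minus strand for Slc25a4 and chrX:36795347-36795596 on the plus strand for Slc25a5. That of Slc25a3 lies at chr10:91123968-91124217 on the minus strand, partly inside the annotated gene, which reaches to 91124046. The start used for Slc25a5 was not found in a GENCODE transcript, while those of Slc25a4 and Slc25a3 were.
Slc25a4: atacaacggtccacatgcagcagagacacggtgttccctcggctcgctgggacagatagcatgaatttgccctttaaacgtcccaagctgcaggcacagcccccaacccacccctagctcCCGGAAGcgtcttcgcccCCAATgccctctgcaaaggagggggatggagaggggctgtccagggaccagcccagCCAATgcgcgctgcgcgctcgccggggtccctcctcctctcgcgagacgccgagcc
Slc25a5: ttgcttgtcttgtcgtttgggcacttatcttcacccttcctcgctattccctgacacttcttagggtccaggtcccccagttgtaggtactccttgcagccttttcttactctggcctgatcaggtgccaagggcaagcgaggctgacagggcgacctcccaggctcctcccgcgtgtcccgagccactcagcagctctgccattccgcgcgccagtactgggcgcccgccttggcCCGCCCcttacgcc
Slc25a3: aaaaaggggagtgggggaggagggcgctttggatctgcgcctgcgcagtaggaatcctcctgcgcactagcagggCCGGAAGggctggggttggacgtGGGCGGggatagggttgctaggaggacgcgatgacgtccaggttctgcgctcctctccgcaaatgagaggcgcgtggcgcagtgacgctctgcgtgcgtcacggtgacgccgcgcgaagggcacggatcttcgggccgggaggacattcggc
Both strands were searched. The box bound by nuclear factor Y, CCAAT, was present at 2 places for Slc25a4 and in neither of the other windows. It was found in 33.9% of all 32851 promoter windows of this length and in 45.7% of the 46 windows of the 36 carrier genes in the promoter table. The box bound by Sp1, GGGCGG, was present once each for Slc25a5 and Slc25a3, in 32.7% of all windows and in 69.6% of the carriers' windows. The element of GABP and other ETS factors, CCGGAAG, was present once each for Slc25a4 and Slc25a3, in 6.91% of all windows and in 13.0% of the carriers' windows. The element of estrogen-related receptors, AAGGTCA, was found in 4.08% of all windows and, among carriers, in that of Slc25a34 alone. The TATA box, TATAAA, was found in 12.4% of all windows and in 4.35% of the carriers' windows. A match of letters is a description and does not show binding.

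The ATP-Mg/phosphate carriers, most of them regulated by calcium, exchange ATP-Mg for phosphate and thereby change the nucleotide content of the matrix. They held both of the remaining members whose groups did not overlap, so that this was true of 3 of 38 members (7.89%), against 11.8% of all genes tested. Slc25a23 (chr17:57043711-57059909) measured 56.6, 53.3 and 49.4 CPM in R193H hearts, against 59.3, 61.1 and 57.2 CPM in WT hearts. Every R193H heart was below every WT heart by a narrow margin, and the log2 fold change was -0.16 (SE 0.081, edgeR adjusted p = 0.877), or -0.028 with library totals as the scale. Slc25a24 (chr3:109123149-109168409) measured 11.5, 15.7 and 10.8 CPM in R193H hearts, against 10.4, 10.6 and 10.2 CPM in WT hearts. Its R193H hearts all lay above the WT hearts, as for 5.99% of genes tested, and R193H replicate 2 stood far above the other five. The log2 fold change was 0.28 (SE 0.15, edgeR adjusted p = 0.882) with all hearts and 0.10 without R193H replicate 2. That heart also had the highest summed level of 7 fibroblast markers, 2100.1 CPM, against 1337 and 1404 CPM in the other R193H hearts and 1257 to 1493 CPM in WT hearts, and the part of this in Slc25a24 was not tested. Slc25a25 ranged from 9.002 to 15.4 CPM in R193H hearts and from 10.8 to 16.1 CPM in WT hearts. Slc25a41 had at most 1 count in any heart, and Slc25a54 had none.

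**Figure D2:**
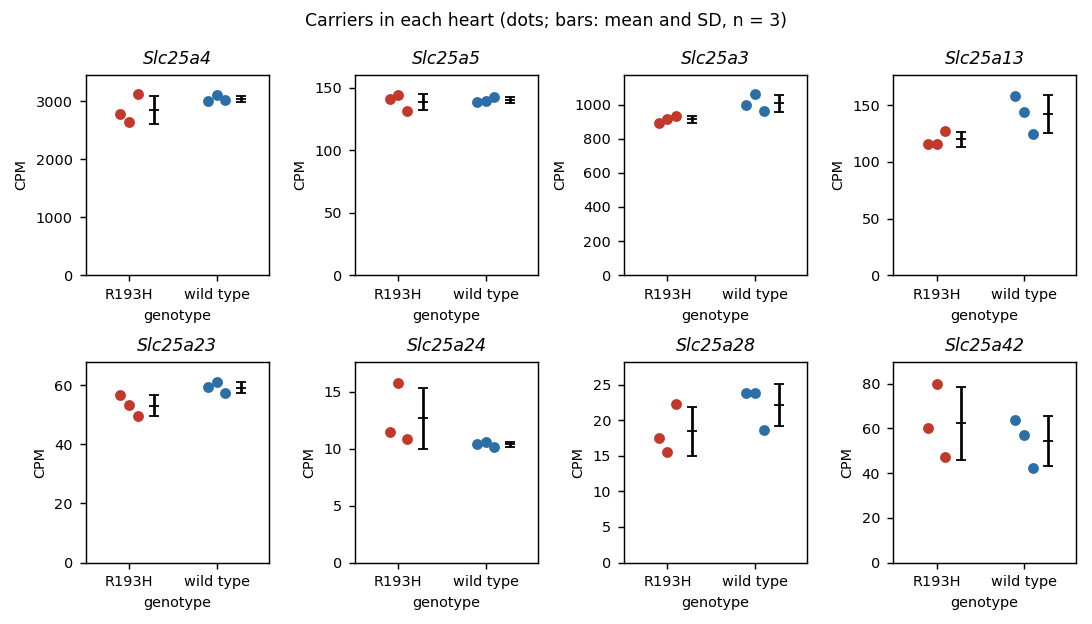
CPM of 8 carriers in each heart, R193H hearts left and WT hearts right, with the mean and SD of 3 hearts as black bars and every axis starting at 0. Slc25a3 and Slc25a23 have all R193H hearts below the WT hearts, Slc25a24 has them above with 1 heart at 15.7 CPM, and the other 5 genes overlap.

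The aspartate/glutamate carriers Slc25a12 and Slc25a13 and the oxoglutarate/malate carrier Slc25a11 are the membrane steps of the malate-aspartate shuttle. Slc25a13 (chr6:6041218-6217304) measured 116, 116 and 127 CPM in R193H hearts, against 158, 144 and 124 CPM in WT hearts. The first and second WT replicates lay above all R193H hearts and WT replicate 3 lay among them. Its means were 119.8 ± 6.62 CPM in R193H hearts and 142 ± 16.7 CPM in WT hearts (SD, n = 3 each), with a log2 fold change of -0.24 (SE 0.099). It was -0.12 with library totals as the scale, where its unadjusted p was 0.246, and -0.16 without WT replicate 1. The unadjusted p was also above 0.05 without R193H replicate 1, R193H replicate 2 or WT replicate 2. In the same edgeR test it stayed below that level without R193H replicate 3 or without WT replicate 3. The log2 fold changes there were -0.28 and -0.33, both lower than with all hearts. Slc25a12 (chr2:71274270-71367781), the form known as the main one of heart and muscle, measured 156, 153 and 161 CPM in R193H hearts, against 168, 172 and 152 CPM in WT hearts. Its log2 fold change was -0.064 (SE 0.080). Per kilobase of the main annotated transcript, Slc25a12 stood at 0.642 of Slc25a13 in R193H hearts and 0.567 of it in WT hearts, the annotated Slc25a12 transcript being 6351 bases long and that of Slc25a13 3121 bases. In CPM, with no length in it, Slc25a12 was the higher of the pair.

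Slc25a11 (chr11:70644019-70647531) came after Slc25a4 and Slc25a3 in CPM, at 356, 386 and 388 CPM in R193H hearts and 423, 448 and 365 CPM in WT hearts. WT replicate 3 lay within the R193H range, and the log2 fold change was -0.13 (SE 0.095). A total of 6.38% of its 50-base stretches also belong to Rnf167, which overlaps it on the opposite strand, and strandedness of the libraries is not given in the sources used here. Among the other glutamate and dicarboxylate carriers, Slc25a22 (glutamate) averaged 35.9 ± 5.40 CPM in R193H hearts and 31.6 ± 6.80 CPM in WT hearts. Slc25a10, which exchanges dicarboxylates for phosphate, averaged 12.2 ± 1.23 CPM in R193H hearts and 11.7 ± 2.30 CPM in WT hearts. The citrate carrier Slc25a1 averaged 8.49 ± 2.51 CPM in R193H hearts and 7.84 ± 1.24 CPM in WT hearts, with R193H replicate 2 highest at 11.4 CPM. The glutamate carrier Slc25a18 and the oxoadipate carrier Slc25a21 had at most 7 and 1 counts in any heart.

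Slc25a20 brings acylcarnitines into the matrix in exchange for free carnitine. It measured 113, 109.9 and 123 CPM in R193H hearts, against 117, 133 and 109 CPM in WT hearts (chr9:108662136-108684642). The groups were interleaved, and the log2 fold change was -0.052 (SE 0.094). It stood at 65.9 CPM per kilobase of the main transcript, the fifth carrier by that measure, and at 24.2 over all annotated exons, place 8 of the family. The other carriers grouped with it lay far lower. Slc25a44, which carries branched-chain amino acids, averaged 23.9 ± 1.105 CPM in R193H hearts and 24.1 ± 2.25 CPM in WT hearts, and the ornithine carrier Slc25a15 averaged 11.3 ± 0.845 CPM and 11.4 ± 1.05 CPM in those groups. Slc25a29, a carrier of basic amino acids, measured 5.61, 5.76 and 5.68 CPM in R193H hearts, against 5.74, 7.27 and 7.11 CPM in WT hearts (log2 fold change -0.24, SE 0.15). Its 3 R193H hearts lay close together, with WT replicate 1 between the highest of them and their middle value. Slc25a45 averaged 6.14 ± 0.641 CPM in R193H hearts and 5.39 ± 0.944 CPM in WT hearts, and the second ornithine carrier Slc25a2 had at most 3 counts in any heart.

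The mitoferrins Slc25a28 and Slc25a37 import iron for haem and iron-sulphur clusters, and Slc25a37 is best known from developing red cells. Slc25a28 (chr19:43663801-43675006) measured 17.5, 15.5 and 22.3 CPM in R193H hearts, against 23.9, 23.9 and 18.7 CPM in WT hearts. R193H replicate 3 lay above WT replicate 3, so the groups overlapped, and the log2 fold change was -0.26 (SE 0.15). It was -0.41 without R193H replicate 3 and -0.15 without R193H replicate 2. Slc25a37 (chr14:69241848-69285544) measured 22.6, 20.4 and 22.3 CPM in R193H hearts, against 23.7, 20.3 and 21.9 CPM in WT hearts, a log2 fold change of -0.013 (SE 0.096). Over the same hearts the summed level of 7 erythroid markers was 496, 649.6 and 583 CPM in R193H hearts, against 3134, 274 and 3009.5 CPM in WT hearts. WT replicate 1 was highest and WT replicate 2 lowest of the 6 hearts in both measures, but the hearts between them were not in the same order. R193H replicate 2, with the highest erythroid sum of the R193H hearts, had their lowest Slc25a37. WT replicate 3, at 3009.5 CPM of erythroid markers, had less Slc25a37 than R193H replicate 1 and R193H replicate 3. The part of red cell RNA in these values was not tested.

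Slc25a38, a glycine carrier needed for haem synthesis, measured 16.0, 15.6 and 20.2 CPM in R193H hearts, against 18.8, 22.9 and 17.5 CPM in WT hearts (log2 fold change -0.19, SE 0.14). The glutathione carrier Slc25a39 measured 67.9, 71.3 and 70.2 CPM in R193H hearts, against 71.4, 83.0 and 70.7 CPM in WT hearts (log2 fold change -0.10, SE 0.085). Its relative Slc25a40 measured 12.8, 10.1 and 8.89 CPM in R193H hearts, against 10.4, 8.05 and 8.66 CPM in WT hearts (log2 fold change 0.23, SE 0.17). The groups overlapped in all 3 genes, and the related pair Slc25a39 and Slc25a40 had means on opposite sides of WT.

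**Figure D3:**
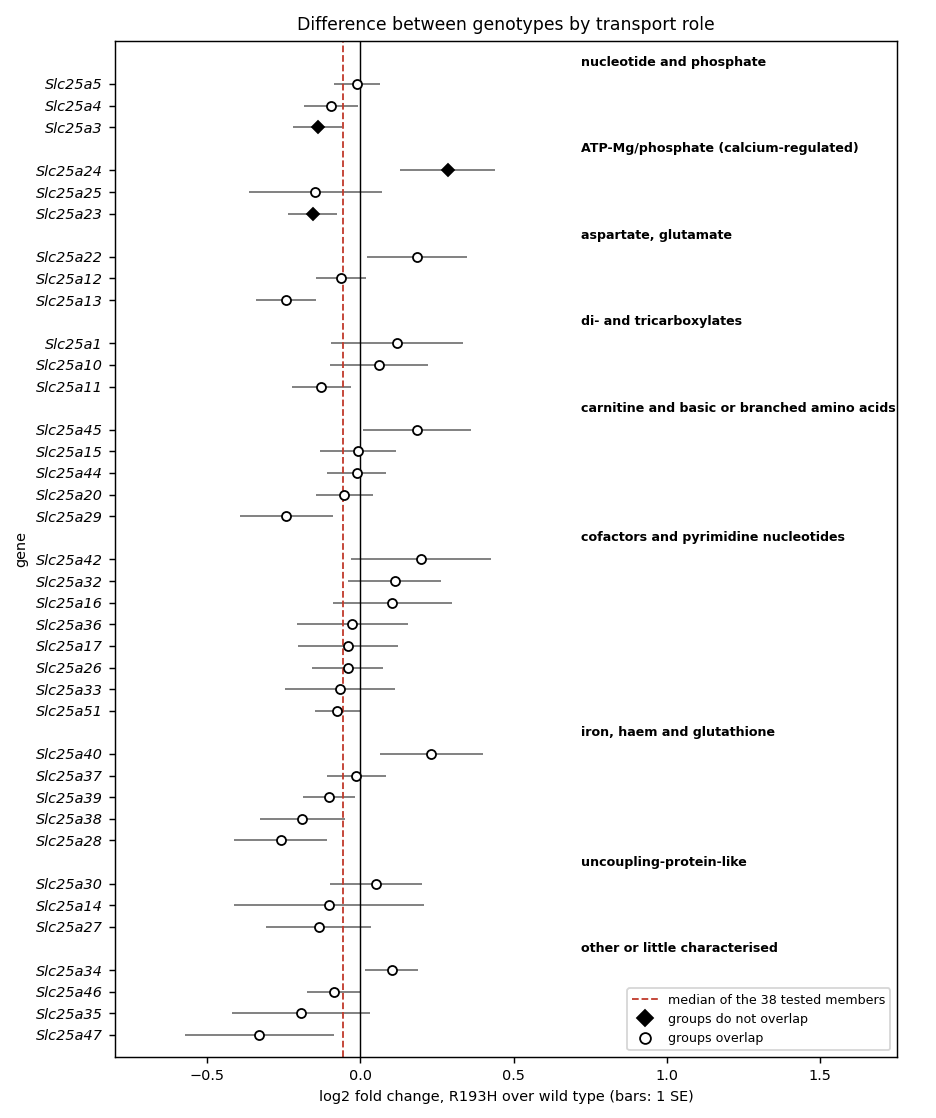
Log2 fold change of 37 of the 38 tested carriers, R193H over WT, with 1 SE as bars, grouped by transport role; diamonds mark the 3 genes whose groups do not overlap. All values lie between -0.33 and 0.28, and the dashed line marks the median of all 38, -0.058.

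Carriers of cofactors and pyrimidine nucleotides gave 9 tested members, of which 3 had a higher and 6 a lower mean in R193H hearts. Slc25a51, the mitochondrial NAD carrier, measured 64.1, 63.7 and 68.9 CPM in R193H hearts, against 68.8, 68.5 and 69.9 CPM in WT hearts, and had the smallest spread within groups of all 38 members (SD 0.045 on the log2 scale). Slc25a42, a coenzyme A carrier, had the largest spread (SD 0.34), at 60.01, 79.8 and 47.4 CPM in R193H hearts, against 63.9, 57.2 and 42.3 CPM in WT hearts. Its log2 fold change was 0.20 (SE 0.23) with all hearts and -0.015 without R193H replicate 2. Slc25a36, a pyrimidine nucleotide carrier, measured 48.5, 33.9 and 58.9 CPM in R193H hearts, against 48.3, 46.5 and 49.1 CPM in WT hearts. The R193H hearts lay at both ends of its range, with WT hearts in the middle. Its relative Slc25a33 averaged 14.7 ± 3.39 CPM in R193H hearts and 15.4 ± 2.53 CPM in WT hearts. The S-adenosylmethionine carrier Slc25a26 averaged 15.3 ± 1.16 CPM in R193H hearts and 15.7 ± 1.55 CPM in WT hearts. Slc25a32, which carries folate or flavin, averaged 10.4 ± 1.62 CPM in R193H hearts and 9.66 ± 1.06 CPM in WT hearts. Slc25a17, which resides in peroxisomes, averaged 10.5 ± 2.24 CPM in R193H hearts and 10.7 ± 0.699 CPM in WT hearts, and Slc25a16 averaged 4.12 ± 0.627 CPM and 3.84 ± 0.482 CPM in those groups.

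The 3 uncoupling-protein-like carriers were low. Slc25a27 averaged 8.91 ± 1.36 CPM in R193H hearts and 9.78 ± 1.68 CPM in WT hearts. Slc25a30 averaged 7.61 ± 0.543 CPM in R193H hearts and 7.34 ± 1.01 CPM in WT hearts, and Slc25a14 averaged 2.03 ± 0.741 CPM and 2.19 ± 0.321 CPM in those groups. Among carriers whose substrate is little known, Slc25a34 was abundant, at 119.6, 119.6 and 109.6 CPM in R193H hearts, against 100.5, 118 and 107 CPM in WT hearts (log2 fold change 0.10, SE 0.085). Per kilobase of the main transcript Slc25a34 stood at 42.1 CPM, Slc25a39 at 43.0 and Slc25a13 at 41.9. Over all annotated exons they stood at 42.1, 26.3 and 34.5 CPM per kilobase, so their order depends on the length used. Its neighbour by number, Slc25a35, averaged 5.60 ± 1.32 CPM in R193H hearts and 6.44 ± 1.55 CPM in WT hearts, and 25.0% of its 50-base stretches are shared with other genes, among them Rangrf on the opposite strand. Slc25a46, an outer membrane protein of mitochondrial dynamics, measured 67.2, 55.2 and 60.9 CPM in R193H hearts, against 65.9, 66.0 and 62.9 CPM in WT hearts. Slc25a47, known from liver, averaged 2.71 ± 0.752 CPM in R193H hearts and 3.41 ± 0.303 CPM in WT hearts and had the lowest log2 fold change of the tested members, -0.33 with an SE of 0.24. That value was -0.56 without R193H replicate 1 and -0.15 without R193H replicate 2. Slc25a43 and Slc25a53 had at most 8 counts in any heart, and Slc25a48 had none. A count of 0 allows up to 0.137 to 0.153 CPM in R193H hearts and 0.145 to 0.204 CPM in WT hearts (3 counts per library).

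Over all 38 tested members, 11 had a higher and 27 a lower mean in R193H hearts, with a median log2 fold change of -0.058 against a median of -0.00036 over all genes tested, and 28 had a higher and 10 a lower mean under scaling by library totals. That scaling moved the median of all genes to 0.13 and that of the carriers to 0.068, so the distance of the carriers from all genes was -0.058 under both scalings. Over all genes, 49.9% had the higher mean in R193H hearts and 50.1% the lower one. The carriers' median relative to the WT mean was 0.046, -0.10 and -0.079 in R193H hearts, against 0.0066, 0.037 and -0.057 in WT hearts (log2 scale). R193H replicate 1 thus lay above every WT heart, and the other two R193H hearts lay below every WT heart. Members with lower means included all 6 of the most abundant carriers. Filters on low counts removed 9 members, so the counts here describe the 38 and not the family.

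**Figure D4:**
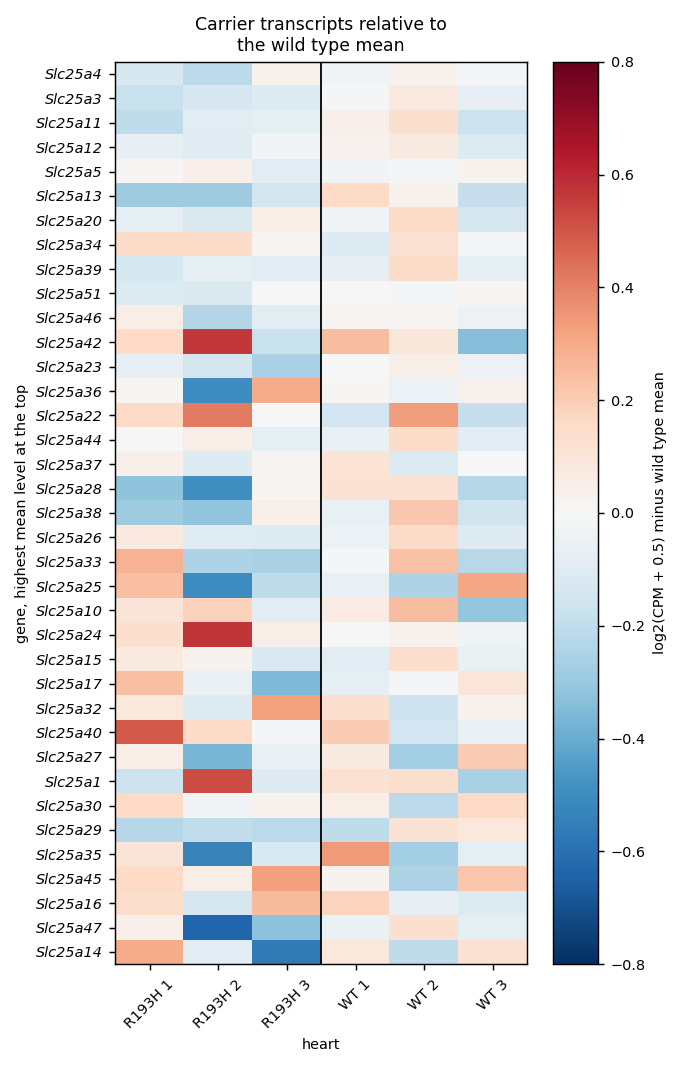
Level of 37 of the 38 tested carriers in each heart, as log2(CPM + 0.5) minus the mean of the WT hearts, with R193H hearts left of the line and WT hearts right of it and the most abundant carriers at the top. R193H replicate 2 holds both strong blue cells (Slc25a36, Slc25a28) and strong red cells (Slc25a42, Slc25a24), while the rows of Slc25a51 and Slc25a5 stay pale.

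The family took 0.546%, 0.585% and 0.575% of all counts in R193H hearts, against 0.554%, 0.570% and 0.545% in WT hearts. Each share had a 95% exact binomial interval no wider than 0.550% to 0.558%, the interval of WT replicate 1. The mean share was 0.569% ± 0.0204 in R193H hearts and 0.556% ± 0.0125 in WT hearts (SD, n = 3 each; exact two-sided permutation p = 0.4). Of the counts of nuclear genes, the family took 0.860% ± 0.0266 in R193H hearts and 0.880% ± 0.0201 in WT hearts (SD, n = 3 each; exact two-sided permutation p = 0.3). The direction of the difference in share thus depended on whether mitochondrially encoded genes were in the total. The exact permutation test, which with 3 hearts against 3 cannot go below 0.1, could call neither difference at 0.05.

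Spread between hearts differed widely within the family. The 28 members with a mean of at least 10 CPM had a median SD within groups of 0.12 on the log2 scale, and all 7938 genes at that level also had 0.12. R193H replicate 2 was the lowest heart for 12 of the 38 members (31.6%, against 23.9% of all genes tested). WT replicate 2 was the highest heart for 13 members (34.2%, against 18.04% of all genes tested). These are descriptions of single hearts, with no test.

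Partners of the carriers were described from 7 lists with 49 genes in the table, of which 47 were tested. None passed the threshold in edgeR, and 1, Ccdc109b (the dominant-negative subunit of the calcium uniporter, also called Mcub), had an unadjusted p under 0.05, against 5.73% of all genes tested. The groups did not overlap in 5 of the 47 (Ccdc109b, Sfxn3, Sfxn4, Mdh2 and Timm8a1), against 11.8% of all genes tested. Ccdc109b measured 1.12, 1.83 and 2.09 CPM in R193H hearts, against 1.06, 0.908 and 0.601 CPM in WT hearts (log2 fold change 0.99, SE 0.36, edgeR adjusted p = 0.781). All R193H hearts lay above all WT hearts at this low level. Macrophage markers had a summed level of 364, 378 and 269 CPM in R193H hearts, against 222, 231 and 263 CPM in WT hearts, with higher means for all 9 tested, and their part in this value was not tested. The uniporter list had 4 of 8 higher means (median log2 fold change 0.015).

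Among family members under other symbols, Ucp3, the uncoupling protein of muscle, measured 42.5, 47.6 and 40.6 CPM in R193H hearts, against 21.3, 41.2 and 29.8 CPM in WT hearts. WT replicate 2 lay between the lowest and the second R193H heart, and the log2 fold change was 0.50 (SE 0.22, edgeR adjusted p = 0.866). Ucp2, Mtch1 and Mtch2 had log2 fold changes of 0.097, 0.035 and -0.037, and Ucp1 was at 0 in all R193H hearts and at most 0.425 CPM in WT hearts. The 12 tested genes that import carrier proteins into the inner membrane had 5 higher and 7 lower means (median -0.043), with Timm8a1, a chaperone of the intermembrane space, at -0.33 (SE 0.20). Shuttle enzymes had 5 higher and 4 lower means (median 0.023). Of these, mitochondrial malate dehydrogenase Mdh2 measured 1065, 1092 and 1109 CPM in R193H hearts, against 1156, 1266 and 1185 CPM in WT hearts. Mdh2 had no overlap between groups (log2 fold change -0.14, SE 0.079, edgeR adjusted p = 0.890). Mitochondrial aspartate aminotransferase Got2 stood at -0.20 (SE 0.099, edgeR adjusted p = 0.867), and its groups overlapped, with WT replicate 3 inside the R193H range. Other inner membrane carriers, the outer membrane channels (Vdac genes) and the permeability transition genes had medians of 0.018, -0.074 and 0.068. In the first of these lists, Sfxn3 and Sfxn4, sideroflexins, had all R193H hearts above all WT hearts (log2 fold changes 0.33, SE 0.15, and 0.35, SE 0.20).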

How the data were processed

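Messenger RNA was measured in hearts of 3 R193H and 3 WT mice. The authors deposited raw integer counts of reads for each gene symbol, from 14736067 to 21852210 per heart. HISAT2 2.0.4 and the build GRCm38 were used, per the submitters' processing notes. The counting program and strandedness were not stated there. Columns carry the sample titles, and groups come from the genotype label. The series calls the hearts biological repeats.

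Counts were scaled by TMM, filtered with filterByExpr (14370 of 44792 symbols kept) and tested with edgeR 4.0.16 (robust quasi-likelihood, R 4.3.3) with no covariates. p-values were Benjamini-Hochberg adjusted over all genes tested. DESeq2 1.42.0, limma-voom (limma 3.58.1), other scalings and filters and leaving out each heart were alternatives. The edgeR test was run on simulated counts with set changes larger than that of any carrier. Power for changes as small as those of the carriers was not measured. Single shares used an exact permutation test (scipy 1.17.1). Levels per kilobase use the longest principal transcript in GENCODE M21, and sequences come from GENCODE and RefSeq (GRCm38.p6). Values by heart were given for the 8 most abundant members, the 8 of smallest p and the nucleotide, phosphate, carnitine, aspartate/glutamate and iron carriers, and for further members after their values were seen. Of each partner list, up to 3 genes of smallest p were named, and all 5 family members with other symbols. Of the tested members, 1 is in the counts and medians but is not reported here by itself. The members and lists were chosen with earlier results of these data known.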

Additional observations from a re-analysis of the deposited data

How the results depend on the processing

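In none of the 15 alternatives did a carrier pass the adjusted threshold, and the lowest adjusted p was 0.416, for Slc25a28 without R193H replicate 3. Over the whole table edgeR called 1 gene, against 38 with no filter on low counts, 42 with DESeq2 and 0 with mitochondrially encoded genes left out, and 3 to 21 when each heart was left out in turn. The median log2 fold change of the carriers ran from -0.071 without R193H replicate 1 to -0.023 without R193H replicate 2. With library totals as the scale it was 0.068, and the median over the whole table was 0.13. The difference in the family's share of all counts was 0.0126 percentage points, and 0.0044 to 0.024 when hearts were left out. The difference in its share of nuclear counts, with all hearts, was -0.020 percentage points. Under library totals, 17 members with a lower mean under TMM had a higher one, with log2 fold changes, among those named, of 0.029 for Slc25a4, 0.12 for Slc25a5, 0.0017 for Slc25a11, 0.063 for Slc25a12, 0.023 for Slc25a14, 0.12 for Slc25a15, 0.087 for Slc25a17, 0.074 for Slc25a20, 0.084 for Slc25a26, 0.058 for Slc25a33, 0.086 for Slc25a36, 0.11 for Slc25a37, 0.025 for Slc25a39, 0.12 for Slc25a44, 0.036 for Slc25a46 and 0.050 for Slc25a51. None of the other 8 alternatives that kept all hearts changed the sign of a member. Leaving out hearts changed the sign of 17 members, whose log2 fold changes ran for Slc25a1 from -0.15 to 0.25, Slc25a10 from -0.090 to 0.19, Slc25a14 from -0.40 to 0.14, Slc25a15 from -0.052 to 0.070, Slc25a17 from -0.21 to 0.11, Slc25a20 from -0.12 to 0.029, Slc25a25 from -0.38 to 0.035, Slc25a26 from -0.11 to 0.040, Slc25a30 from -0.055 to 0.14, Slc25a32 from -0.0033 to 0.22, Slc25a33 from -0.27 to 0.064, Slc25a35 from -0.36 to 0.0031, Slc25a36 from -0.21 to 0.16, Slc25a37 from -0.068 to 0.043, Slc25a42 from -0.015 to 0.37, Slc25a44 from -0.061 to 0.066 and Slc25a5 from -0.038 to 0.032. Without a change of sign, Slc25a47 ran from -0.56 to -0.15, Slc25a13 from -0.33 to -0.16, Slc25a23 from -0.21 to -0.099, Slc25a38 from -0.31 to -0.070, Slc25a40 from 0.069 to 0.35, Slc25a24 from 0.10 to 0.40, Slc25a11 from -0.21 to -0.064 and Slc25a4 from -0.16 to -0.040. Under library totals the members with an unadjusted p under 0.05 were Slc25a24 (0.42) and Slc25a34 (0.23). Scaling by library totals leaves out the TMM factors, which were 1.001 to 1.118 in R193H hearts and 0.9472 to 0.9675 in WT hearts. Why these factors differed between genotypes was not tested. The cause of the changes when hearts were left out was also not tested. Replicate numbers used here follow the order of the sample titles within each genotype and do not pair hearts. The titles give R193H and WT hearts no shared number, so no paired analysis was possible. With 3 hearts a group, SEs had a median of 0.15, and 9 members had too few counts to test.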
